A study of Canis lupus familiaris with 5 samples.

Results

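Distended and undistended cephalic vein of 2 dogs were compared over all nuclei of each library. The samples labelled as distended vein (n = 2 libraries, dogs 1 and 2) were set against those labelled as control vein (n = 2 libraries from the same 2 dogs). Barcodes with 100 or more detected features were kept as nuclei, and 4163 of the 6868 nuclei kept in the series belong to these 4 libraries. The animals were mongrel dogs of 25 kg, labelled male in all 4 libraries, with no age in the labels. Control vein was a separate segment that was excised without distension. Distended vein was cannulated and filled against a closed outflow with 0.9% sodium chloride that carried 60 mg of papaverine hydrochloride, a vasodilator, and 43 mg of bivalirudin, a thrombin inhibitor. Harvest and distension together lasted about 30 min, so pressure, saline and both drugs act together in the distended group and cannot be told apart. Both kinds of segment were snap-frozen, and nuclei were isolated from about 50 mg of tissue for droplet sequencing of nuclear RNA. The remaining library of the series, a vein graft of dog 1, took no part in the comparison.

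Veins used as bypass grafts are distended at harvest to relieve spasm and to find leaking branches, which stretches the whole wall within minutes. The endothelium that lines a vein makes nitric oxide and prostacyclin, stores von Willebrand factor and is held together by adherens and tight junctions. Smooth muscle below it contracts through actin and myosin, and fibroblasts of the adventitia make the collagen-rich matrix. Stretch is known to induce immediate early transcription factors first and genes of matrix remodelling later. Levels below are UMIs, each a tagged RNA molecule, summed per library and scaled for library size to CPM, counts per 1e+06 UMIs, with TMM, which adjusts libraries by the trimmed mean of gene ratios. Unless stated otherwise, a set of 4 values gives the control veins of dogs 1 and 2 first and then the distended veins of dogs 1 and 2.

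The 4 libraries were shallow and uneven. They kept 773, 1041, 2108 and 241 nuclei, with 500464, 339917, 1497654 and 279555 UMIs after 4 dominant uncharacterised features and features that name no gene had been dropped. The dominant features held 57.7% to 65.1% of kept UMIs in the controls and 26.5% to 37.8% in the distended libraries. The log CPM of distended dog 2 correlated with the other libraries at Pearson r from 0.472 to 0.644 across 7404 genes. The 2 controls correlated with each other at 0.655. The closest pair was control dog 2 and distended dog 1 (r = 0.874), which are different animals and different groups. With the 5 largest barcodes of each library removed, distended dog 2 correlated at 0.610 to 0.654 with the others, and the controls at 0.670 with each other. In distended dog 2, 5 barcodes held 30.3% of the UMIs and 87.7% of those from ribosomal protein genes, and the largest alone held 13.1%. In the other 3 libraries the 5 largest barcodes held 2.68% to 9.25% of the UMIs. Values without the 5 largest barcodes of each library are given below for named genes whose groups then overlapped and for the largest shifts in level. Of all barcodes, 1 occurred in more than 1 of the 4 libraries.

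No gene passed the test in distended against control vein. The edgeR quasi-likelihood test on the 4 library sums, with Benjamini-Hochberg adjustment at 0.05, called 0 of 7404 tested genes (0%). At an unadjusted p under 0.05, 43 genes were higher and 35 lower. DESeq2 also called 0, with 64 higher and 40 lower at that unadjusted level. The residual degrees of freedom were 2, and the biological coefficient of variation was 0.593. An exact permutation test of 2 against 2 libraries cannot go below a two-sided p of 0.333, so single values are described and not tested.

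The direction of change mostly differed between the dogs. Distended vein was above control in both dogs for 1396 genes (18.9%) and below it in both for 1405 (19%). It was above in dog 1 and below in dog 2 for 2329 genes, and the reverse for 2274, so that 62.2% of genes went opposite ways. Across genes, which are not independent, the within-dog log2 ratios had a Pearson r of -0.48. Without the 5 largest barcodes of each library 58.0% went opposite ways and r was -0.313. Both distended libraries lay above both controls for 890 genes (12%) and below both for 865 (11.7%). The median log2 ratio over all tested genes was 0.01 in dog 1 and -0.02 in dog 2.

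**Figure D1:**
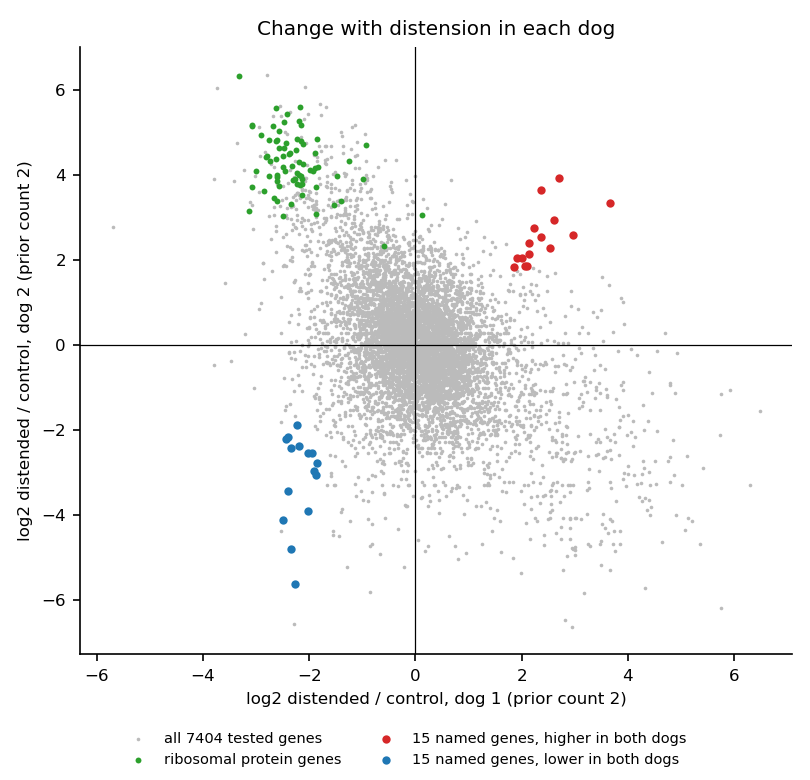
Each grey point is 1 of 7404 tested genes, placed by its log2 ratio of distended to control vein in dog 1 (horizontal axis) and in dog 2 (vertical axis), with a prior count of 2. Red and blue points are the 15 genes named in each direction, and green points are ribosomal protein genes, including features that share a name. Of the 72 tested ribosomal protein genes with an unshared name, 71 lie below 0 in dog 1 and above 0 in dog 2.

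The genes with the largest difference shared by both dogs were ranked by the smaller of the 2 within-dog log2 ratios. The 15 highest and the 15 lowest are described, and these same values chose them, so their differences support nothing further. The last gene inside the higher set was BRCA2 with a smaller ratio of 1.83, and the first outside was PTX3 with 1.81. In the lower set the last gene inside was ASB9 with 1.86, and the first outside was ART4, also with 1.86. All 30 had an adjusted edgeR p of 0.9997. The 15 higher genes had no overlap between groups, with and without the 5 largest barcodes. Of the 15 lower genes 12 had no overlap, again with and without those barcodes.

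Among the higher genes were several that act on the extracellular matrix or on proteases. NTN4, a netrin that binds laminin in basement membranes, measured 34.4 and 54.7 CPM in the controls and 215 and 277 CPM in the distended libraries. Its log2 fold change was 2.47 (SE 0.54, unadjusted edgeR p 0.0048), and the groups were separated by a wide gap. SERPINE2, an inhibitor of thrombin and urokinase, measured 4.31, 9.66, 46.2 and 194 CPM. Its log2 fold change was 4.09 (SE 1.04), and distended dog 2 was the highest library. FKBP10, a chaperone of collagen folding, measured 4.31, 6.44, 35.6 and 119 CPM. TLL1, a metalloprotease that processes procollagens, measured 47.4, 96.6, 208 and 356 CPM, with control dog 2 about midway on the log scale between control dog 1 and distended dog 1. IGFBP3, which binds insulin-like growth factors, measured 2.15, 3.22, 39.1 and 35.6 CPM. The IGFBP3 controls rested on 2 UMIs against 64 in distended vein, and the ratio of pooled counts was 15.0 with an exact 95% counting interval from 3.98 to 126.

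Other higher genes belong to metabolism, signalling and transcription. BCAT1, the cytosolic branched-chain aminotransferase, had 0 UMIs in control dog 1, where 3 counts would be 6.46 CPM. It measured 6.44 CPM in control dog 2 and 38.4 and 95.1 CPM in the distended libraries. Its pooled counts, 78 against 2, gave a ratio of 18.2 with an interval from 4.88 to 153. GLIS3, a zinc-finger transcription factor, had more UMIs than any other of the 15, at 220, 383, 889 and 1584 CPM. Its log2 fold change was 2.04 (SE 0.75), and both dogs showed a similar step, of 2.00 in dog 1 and 2.04 in dog 2. C17H1orf54 measured 6.46, 6.44, 56.2 and 71.3 CPM and had the lowest unadjusted edgeR p of the 15 (0.0042). LDLRAD3, a relative of the LDL receptor, measured 17.2, 9.66, 93.2 and 83.2 CPM. BRCA2, which acts in repair of DNA double-strand breaks, measured 40.9, 67.6, 157 and 249.5 CPM.

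The cytoskeletal members were MYO10, the myosin of filopodia, and TUBB4B, a beta-tubulin. MYO10 measured 6.46, 25.8, 39.8 and 150.5 CPM, and TUBB4B 8.61, 35.4, 58.3 and 222 CPM. In both, control dog 2 and distended dog 1 were the closest across the groups, and distended dog 2 was the highest. TUBB4B was at 4.99, 37.9, 62.5 and 117 CPM without the 5 largest barcodes. SMIM3 and TMEM263, small membrane proteins, had 29.2 to 63.4 CPM in distended vein and 4.31 to 12.9 CPM in control. The gene listed as HSP70, a heat shock chaperone, measured 15.1, 54.7, 77.5 and 253.5 CPM. Of its 64 UMIs in distended dog 2, 40 came from 1 nucleus. Without the nucleus with the most UMIs in each library HSP70 measured 10.8, 48.3, 75.4 and 95.1 CPM, so that the distended libraries were still the higher ones.

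**Figure D2:**
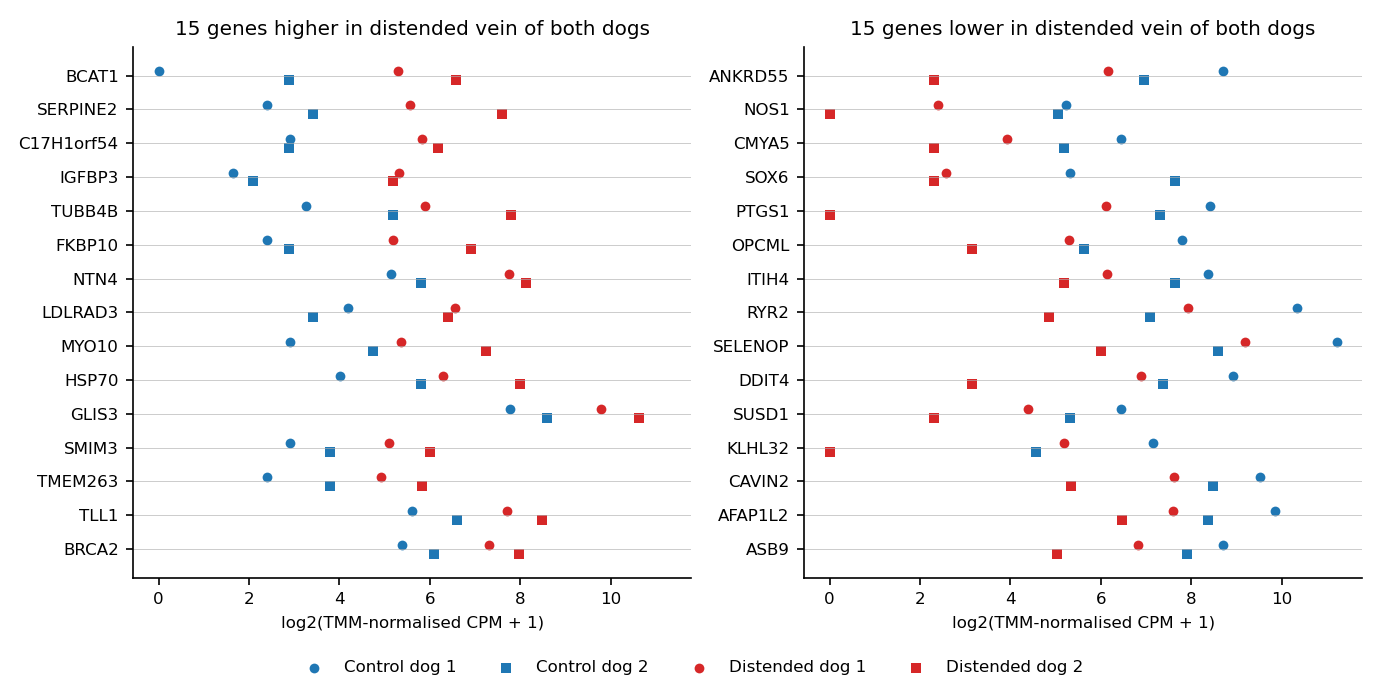
The horizontal axes give log2 of TMM-normalised CPM plus 1 for each of the 15 genes named in each direction, with blue for control, red for distended, circles for dog 1 and squares for dog 2. On the left every red point lies to the right of both blue points, as for NTN4 (34.4 and 54.7 against 215 and 277 CPM), and on the right control dog 1 is the highest library for all genes but SOX6.

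The lower genes included enzymes and channels of vascular signalling. PTGS1, the constitutive cyclooxygenase that supplies prostacyclin synthesis, measured 340, 158, 68.3 and 0 CPM. The last library had 0 UMIs, which allows up to 11.9 CPM at 3 counts, and the log2 fold change was -2.70 (SE 1.32). NOS1, the neuronal nitric oxide synthase, measured 36.6, 32.2, 4.27 and 0 CPM and rested on 27 UMIs in the controls against 6. RYR2, a calcium release channel, measured 1300, 135, 243 and 27.7 CPM. RYR2 overlapped between groups, since control dog 2 was below distended dog 1. CAVIN2, a coat protein of caveolae, measured 732, 354, 197 and 39.6 CPM. AFAP1L2, an adaptor of actin filaments and SRC, measured 919, 328, 193 and 87.1 CPM, with a log2 fold change of -2.14 (SE 0.82). For all of these but NOS1 control dog 1 was well above control dog 2.

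ITIH4, of the inter-alpha-trypsin inhibitor heavy chain family, measured 331, 200, 69.7 and 35.6 CPM with a log2 fold change of -2.29 (SE 0.61, unadjusted edgeR p 0.011). ASB9, an adaptor of a ubiquitin ligase, measured 413, 238, 112 and 31.7 CPM. DDIT4, a stress-induced inhibitor of mTOR signalling, measured 489, 164, 118 and 7.92 CPM, the last from 2 UMIs in 1 nucleus. Also without overlap were ANKRD55, CMYA5, OPCML and SUSD1, each with 1 or 2 UMIs in distended dog 2. KLHL32 overlapped, at 142, 22.5, 35.6 and 0 CPM. SELENOP, a carrier of selenium, measured 2383, 383, 583 and 63.4 CPM and overlapped as well. Of its 1107 UMIs in control dog 1, 188 lay in 1 nucleus.

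SOX6, a transcription factor of red cell and cartilage precursors, was high in 1 nucleus. It measured 38.7, 199.6, 4.98 and 3.96 CPM, and 58 of its 62 UMIs in control dog 2 came from that nucleus. Without the top nucleus of each library SOX6 measured 32.3, 12.9, 4.27 and 0 CPM. With no filter on low counts 8 genes were called higher and 5 lower, and 9 of these 13 had most of their UMIs in 1 nucleus. The 5 lower were SOX6, the globin gene HBM and 3 features without a symbol, LOC100855540, LOC100855558 and LOC480784. HBM had 139 UMIs in control dog 2, 138 of them in 1 nucleus, and 0 in each other library. LOC100855540 had 2696 UMIs in control dog 2, with 2544 in 1 nucleus. The 8 higher, among them CRYAB, a small heat shock protein, and NME1, a nucleoside diphosphate kinase, had from 32 to 170 UMIs in distended dog 2. CRYAB had 43 of 64 there in 1 nucleus. Names in this paragraph other than SOX6 were chosen after their values had been seen.

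The nuclei that carried the higher genes differed between the dogs. Nuclei of the 4 libraries were clustered for description, giving 12 clusters, and a cluster was called after a cell type only from marker genes. Each gene's share is out of its UMIs in that library. In distended dog 1 a median of 71.6% of the UMIs of the 15 higher genes lay in fibroblast-like nuclei. In distended dog 2 a median of 62.5% lay in 1 unnamed cluster and 32.9% in endothelial-like nuclei. Of all UMIs, fibroblast-like nuclei held 51.5% in distended dog 1 and 1.66% in distended dog 2, and in distended dog 2 the unnamed cluster held 46.5% and endothelial-like nuclei 50.2%. NTN4 had 273 of 302 UMIs in fibroblast-like nuclei of distended dog 1, and 47 of 70 in the unnamed cluster of distended dog 2. Of the GLIS3 UMIs in distended dog 2, 334 of 400 lay in that cluster. The unnamed cluster was led by HBM, MIOX and ALAS2 and held 16, 48, 59 and 141 nuclei of the 4 libraries, which is 58.5% of distended dog 2. HBM and ALAS2 had 139 and 19 UMIs in control dog 2, with 138 and 17 in 1 nucleus, and 0 in each other library. They therefore do not describe the nuclei of distended dog 2 in this cluster. The cluster had 8 markers of its best list and 7 of the erythroid list. It stayed unnamed because its leading genes held HBM, ALAS2 and SOX6 of the erythroid list and 0 of the best list. Unnamed thus does not mean without markers. VWF had UMIs in 92 nuclei of distended dog 2 and EGFL7 in 91, against 79 endothelial-like nuclei, so some lay outside that class. Bulk sums of this kind cannot tell fewer cells of a type from less RNA per cell.

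**Figure D3:**
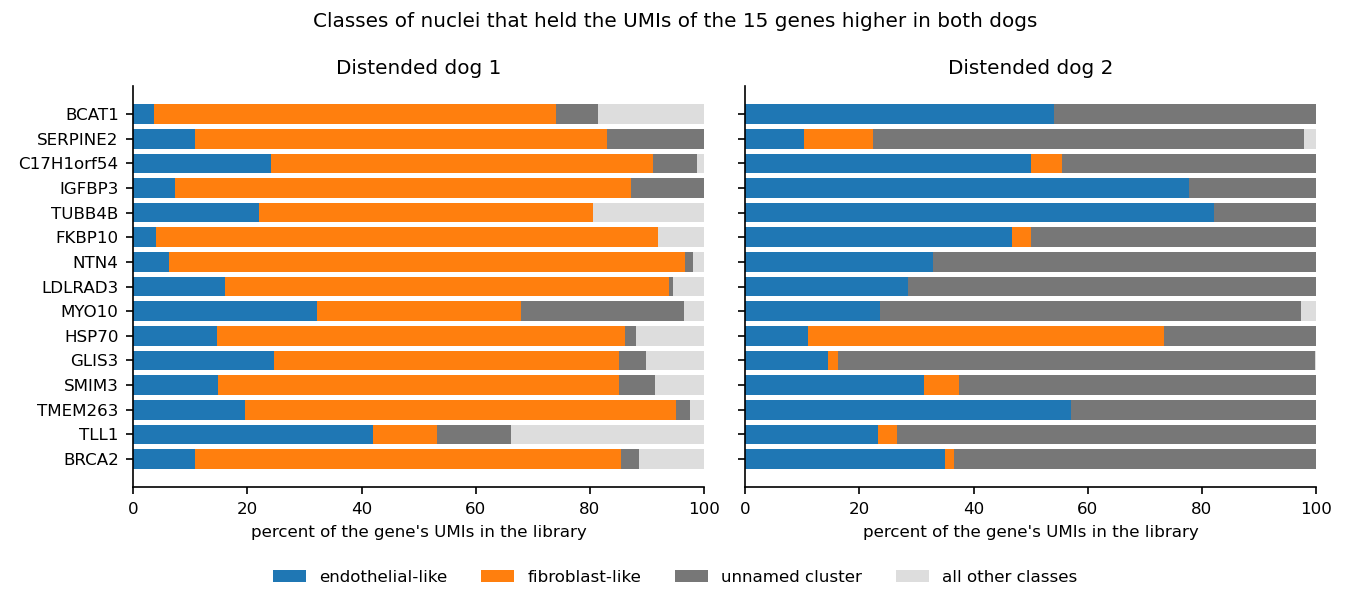
Bars give, for each of the 15 higher genes, the percent of its UMIs that lay in endothelial-like, fibroblast-like, unnamed and other nuclei in distended dog 1 (left) and distended dog 2 (right). The share of fibroblast-like nuclei has a median of 71.6% on the left, and that of the unnamed cluster a median of 62.5% on the right.

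Within endothelial-like nuclei alone, 14 of the 15 higher genes were higher in both dogs and all 15 lower genes were lower in both. These nuclei are part of the sums that chose the genes, and the counts carry no test. The share of all tested genes that went the same way within this class is not given, so the counts support nothing. Several genes rest on 2 UMIs or fewer per library: in the control and the distended vein of dog 1, SOX6 had 1 and 1 within the class, FKBP10 1 and 2, and BCAT1 0 and 2. In distended dog 2 ANKRD55, NOS1, CMYA5, SOX6, PTGS1, OPCML, SUSD1 and KLHL32 had 0 UMIs within the class. The exception among the higher genes was HSP70, at 15.2, 58.1, 32.6 and 49.9 CPM. GLIS3 measured 204, 333, 629 and 413 CPM within endothelial-like nuclei, a smaller step in dog 2 than over all nuclei. NTN4 measured 32.6, 47.6, 38.7 and 164 CPM there, so that its difference in dog 1 was mostly outside this class. PTGS1 measured 341, 243, 173 and 0 CPM, CAVIN2 728, 476, 326 and 49.9 CPM, and AFAP1L2 911, 455, 385 and 49.9 CPM. For these 3 the controls stayed above the distended libraries within the class, at smaller steps in dog 1. Over the 15 lower genes a median of 98.1% of the UMIs in control dog 1 and 81.8% in control dog 2 lay in endothelial-like nuclei. That class held 91.9%, 55.7%, 32.8% and 50.2% of all UMIs, and its part in the lower levels over all nuclei was not tested. The clusters behind the class differed. In dog 1, cluster 0 held 352 of 664 endothelial-like nuclei in control and 278 of 579 in distended vein, cluster 3 held 170 and 54, and cluster 8 held 50 and 154. In dog 2, cluster 8 held 291 of 543 in control and 46 of 79 in distended vein, and cluster 5 held 149 and 4. Cluster 2, led by RPL10L, NDUFA6 and TIMP1, held 57, 2, 38 and 10 nuclei of the 4 libraries. Its nuclei had a median of 3.0 times the median UMIs of their library. Levels within the class were not computed without the 5 largest barcodes of each library.

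Gene lists were read against the shares of all tested genes, 12% above and 11.7% below both controls. No list member was called, and lists overlap in some members. Some members, such as NTN4, SERPINE2, NOS1 and PTGS1, are also among the named genes that these same values chose, and add nothing to a list count. Over all lists 42 different genes lay above both controls and 54 below. Without the 5 largest barcodes of each library 36 of the 42 and 47 of the 54 were still on that side, 5 and 5 overlapped, and 1 and 2 no longer passed the low-count filter. Tested members are those past this filter, from 9 of 37 found (cell cycle) to 72 of 77 (ribosomal proteins). Matrix proteases and their inhibitors had 6 of 18 tested members above both controls and 1 below, of 27 found. ADAM12, a membrane-bound metalloprotease, measured 38.7, 25.8, 135 and 147 CPM, with close values within each group and a log2 fold change of 2.10 (SE 0.55). ADAMTS9, which cleaves versican, measured 40.9, 54.7, 74.0 and 384 CPM, so that dog 2 carried its difference. ADAMTS6, ADAM17, ADAMTSL1 and SERPINE2 were the others above. ADAMTS6 measured 215, 162, 210 and 463 CPM without the 5 largest barcodes, and the groups overlapped. ADAMTSL1 had 22 of its 44 UMIs of distended dog 2 in 1 nucleus. PLAT, tissue plasminogen activator, was the member below, at 105.5, 106, 80.4 and 75.3 CPM. TIMP1, an inhibitor of these enzymes, measured 314, 19.3, 20.6 and 1474 CPM, and 275 of its 372 UMIs in distended dog 2 lay in 1 nucleus. TIMP1 measured 127, 20.7, 21.4 and 163 CPM without the 5 largest barcodes.

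Extracellular matrix genes split by dog. Of 36 tested members 22 were higher in dog 1 and lower in dog 2, and the median log2 ratio was 2.33 in dog 1 and -0.99 in dog 2. The sum of the 15 fibroblast markers was likewise highest in distended dog 1 and lowest in distended dog 2. It was 1741, 5220, 9531 and 796 CPM, with 0 to 2 of the genes at 0 in a library. Gene by gene, 9 of the 11 tested were higher in dog 1 and lower in dog 2, as was DCN, a collagen-binding proteoglycan (25.8, 164, 799 and 87.1 CPM). PDGFRA was higher in both dogs, at 10.8, 64.4, 157 and 202 CPM. COL14A1 was lower in both, at 921, 489, 493 and 35.6 CPM, and gave 428 of the 809 marker UMIs of control dog 1. The part of the fibroblast markers in the matrix result was not tested. Above both controls were 5 members (13.9%, against 12% of all genes), FKBP10, NTN4, COL15A1, COL4A1 and NID2. FKBP10 and NTN4 are also among the 15 higher genes that these same values chose, so their place here adds nothing. COL15A1, a collagen of basement membrane zones, measured 34.4, 41.9, 183 and 99.0 CPM. Below were HSPG2, LAMB1 and TNC. HSPG2, the perlecan of basement membranes, measured 1315, 1249, 739 and 547 CPM, the controls being close together. LAMB1, a laminin chain, measured 749, 744, 361 and 555 CPM.

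Guidance cues of the semaphorin, netrin and Slit families had 4 of 16 tested members above both controls, NTN4, PLXNA2, SEMA6A and SEMA6D, and 2 below, PLXND1 and PLXNA4. SEMA6A measured 245, 248, 263 and 531 CPM, a difference carried by distended dog 2. SEMA6A was at 282, 255, 270 and 662 CPM without the 5 largest barcodes and overlapped, which left 3 members above. SLIT2, a secreted repellent, measured 271, 673, 1822 and 103 CPM and thus was high in dog 1 and low in dog 2 after distension.

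Immediate early genes, the first transcripts induced by a stimulus, also went opposite ways. Of 24 tested members 18 were higher in dog 1 and lower in dog 2, with median log2 ratios of 2.78 and -1.83. JUN measured 362, 2199, 2485 and 329 CPM, and control dog 2 was at the level of distended dog 1. KLF6, CCN1 and DUSP6 lay above both controls. CCN1, a matricellular target of YAP, measured 224, 283, 425.5 and 321 CPM. DUSP6, a phosphatase that acts on ERK, measured 81.8, 86.9, 117 and 194 CPM. FOSL2 lay below both, at 166, 258, 160 and 107 CPM. IER3, a survival gene, was highest in control dog 2 (510, 2348, 467 and 931 CPM).

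The inflammatory lists were read against all tested genes, of which 62.2% went opposite ways in the dogs. Among all 7404 genes 2329 were higher in dog 1 and lower in dog 2, and 2274 the reverse. Of 16 tested NF-kB and cytokine genes 9 were higher in dog 1 and lower in dog 2, and 0 the reverse. NFKBIA, the inhibitor induced by NF-kB, was below both controls at 779, 1810, 551 and 337 CPM, and RELA was the other member below. Of 15 tested interferon response genes 11 were higher in dog 1 and lower in dog 2, and 1 the reverse. STAT2 and DDX58 lay above and TAP1 below both controls. Without the 5 largest barcodes DDX58, a sensor of viral RNA, overlapped at 42.4, 31.0, 61.0 and 40.7 CPM, and the list had 1 member above and 2 below. Leukocyte adhesion and chemokine genes had 1 of 16 above and 2 below, with 5 higher in dog 1 and lower in dog 2, and 6 the reverse. CXCL12, a chemokine, measured 28.0, 19.3, 69.7 and 51.5 CPM, and CD34 and ACKR3 were lower. ICAM1, an adhesion receptor for leukocytes, was highest in control dog 2 (129, 1507, 255 and 238 CPM). That library also had the highest neutrophil markers (28.0, 1243, 29.9 and 246 CPM over 10 genes, with 6, 1, 2 and 3 at 0), and their part in the ICAM1 value was not tested. ACKR1, a chemokine scavenger of venules, measured 247.5, 35.4, 69.7 and 1644 CPM, with 341 of 415 UMIs of distended dog 2 in 1 nucleus. ACKR1 was at 157, 34.5, 64.0 and 148 CPM without the 5 largest barcodes.

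**Figure D4:**
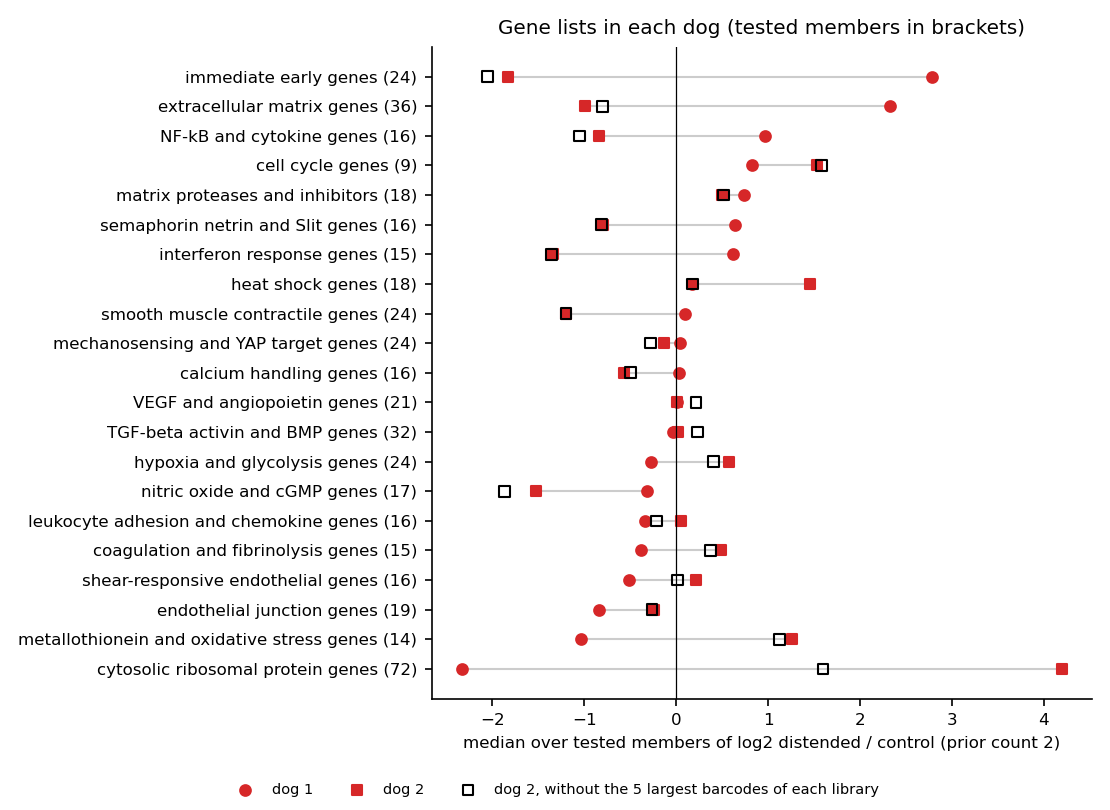
For each of 21 lists the red circle (dog 1) and red square (dog 2) give the median log2 ratio of distended to control vein over its tested members, and the open square gives dog 2 without the 5 largest barcodes of each library. Immediate early and matrix genes lie at 2.78 and 2.33 in dog 1 and below 0 in dog 2, and the heat shock median of dog 2 moves from 1.46 to 0.18 without the large barcodes.

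Junction genes of the endothelium were more often lower than higher. Of 19 tested junction genes 11 were lower in both dogs and 0 higher in both, against 19% and 18.9% of all genes, and 5 lay below both controls. PTPRB, the endothelial phosphatase that acts on VE-cadherin and TIE2, measured 3442, 2473, 1750 and 800 CPM. AFDN, which couples nectins to actin, measured 867, 657, 492 and 238 CPM. PKP4 and CGNL1 were also below both controls. The 18 endothelial markers summed to 15611, 10288, 7895 and 6920 CPM, with 0 at 0 counts in any library. Gene by gene, 8 of the 18 were lower in both dogs, 8 were lower in dog 1 and higher in dog 2, and 2 were higher in both, with median log2 ratios of -1.06 in dog 1 and 0.16 in dog 2. In dog 2 VWF and PTPRB were lower, while PECAM1, at 1754, 522, 775 and 598 CPM, and EMCN, at 721, 216, 345 and 768 CPM, were higher. PECAM1 had 33 of its 151 UMIs of distended dog 2 in 1 nucleus. Without the 5 largest barcodes PECAM1 was at 1665, 542, 781 and 484 CPM, lower in both dogs. Of the 18 markers 8 were then lower in both dogs, 9 were lower in dog 1 and higher in dog 2, and 1 was higher in both. The part of these markers in the junction result was not tested.

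Nitric oxide and cGMP genes had 5 of 17 tested members below both controls and 0 above. These were NOS1, the soluble guanylate cyclase subunits GUCY1A1 and GUCY1B1 and the natriuretic peptide receptors NPR1 and NPR2. Distended dog 2 had 0, 5, 4, 4 and 4 UMIs of them in that order, where 3 counts would be 11.9 CPM. GUCY1A1 measured 396 CPM in control and 314 CPM in distended vein of dog 1, and NPR1 121 and 102 CPM. The part of the mix of nuclei in these levels was not tested. GUCY1B1 measured 77.5, 90.2, 35.6 and 15.8 CPM, with a log2 fold change of -1.62 (SE 0.65). PRKG1, the kinase downstream of cGMP, measured 966.5, 1233, 1118 and 277 CPM, and only distended dog 2 was low. Among coagulation genes VWF, F8 and PLAT were below and SERPINE2 above, of 15 tested. VWF, the platelet-binding factor of endothelium, measured 3003, 2280, 1202 and 713 CPM, and F8, its partner in plasma, 433, 222, 154 and 51.5 CPM. VWF is itself an endothelial marker.

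Of 21 tested VEGF and angiopoietin genes KDR and VEGFA were above both controls, and TEK, NRP2, NOTCH1 and VEGFD below. KDR, the main VEGF receptor, was sparse at 4.31, 19.3, 30.6 and 51.5 CPM, from 2, 6, 43 and 13 UMIs. TEK, the angiopoietin receptor, measured 1220, 518.5, 381 and 503 CPM, where control dog 2 and distended dog 2 nearly met. TEK was at 1345, 521, 387 and 591 CPM without the 5 largest barcodes, higher in dog 2, and the VEGF list had 3 members below. VEGF genes were 5 higher and 4 lower in both dogs. Shear-responsive genes had HEG1, PTGS1 and TEK below and KDR and NQO1 above, of 16 tested. NQO1, a quinone reductase, overlapped without those barcodes at 30.0, 27.6, 32.8 and 20.4 CPM, as did TEK. EDN1, the vasoconstrictor endothelin, measured 2079, 361, 406 and 590 CPM, so that control dog 1 alone was high.

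Smooth muscle contractile genes had 8 of 24 tested members below both controls and 0 above, and 10 were lower in both dogs. With the 5 largest barcodes removed, 7 were below. MYH11, the smooth muscle myosin heavy chain, measured 682, 348, 257 and 19.8 CPM, and ACTA2, smooth muscle actin, 204.5, 90.2, 69.7 and 11.9 CPM. The 12 smooth muscle markers, which include MYH11 and ACTA2, summed to 1461, 802, 835 and 55.5 CPM, with 3, 1, 1 and 7 at 0 counts. Smooth muscle-like nuclei numbered 38, 17, 41 and 2. The part of the marker level in the contractile result was not tested. Of 16 tested calcium handling genes ATP2A3, ITPR2 and SLC8A1 were below and CAMK2D and STIM2 above. ATP2A3, which pumps calcium into the endoplasmic reticulum, measured 172, 245, 56.9 and 7.92 CPM, with a log2 fold change of -2.54 (SE 0.87). Its value in distended dog 2 rested on 2 UMIs, where 3 counts would be 11.9 CPM.

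**Figure D5:**
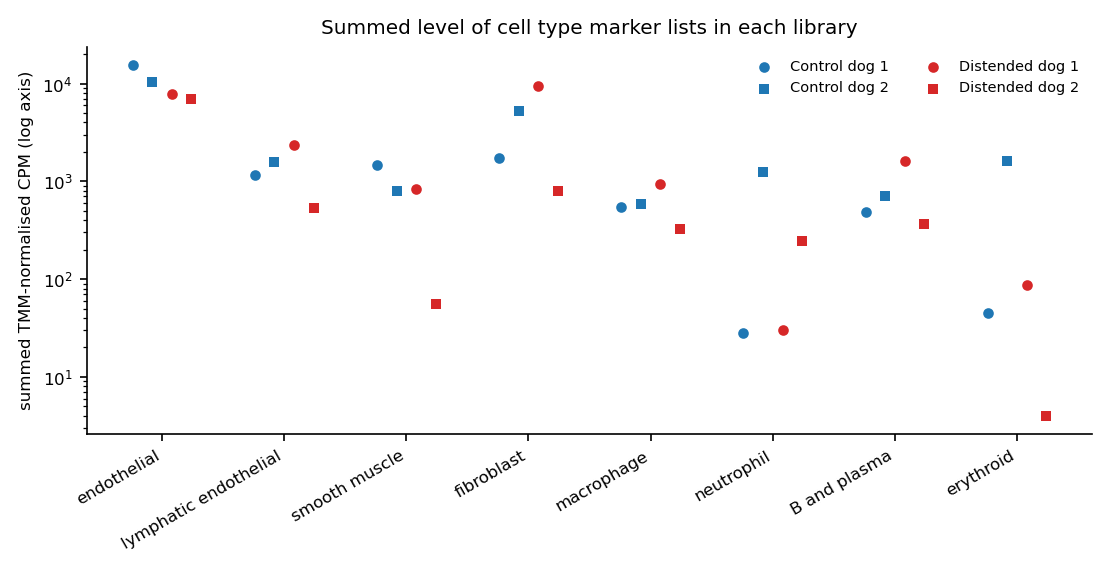
Points give the summed TMM-normalised CPM of each cell type marker list on a log axis, for the lists that reach 500 CPM in at least 1 library (blue control, red distended, circles dog 1, squares dog 2). Endothelial markers run from 15611 in control dog 1 to 6920 in distended dog 2, while fibroblast markers are highest in distended dog 1 (9531) and lowest in distended dog 2 (796).

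Mechanosensing genes had members on both sides. Of 24 tested, PTK2, AMOTL2, CCN1 and LATS1 lay above both controls, and 6 lay below, with VCL, LATS2 and TEAD2 the farthest. PTK2, focal adhesion kinase, measured 362, 283, 514 and 440 CPM, and AMOTL2, a YAP target, 77.5, 96.6, 146 and 135 CPM. VCL, vinculin of focal adhesions, measured 245, 212.5, 149 and 139 CPM, tight within each group. TGF-beta, activin and BMP genes had LTBP1, SMAD1 and ACVR2A above and INHBA and SMAD2 below, of 32 tested. SMAD2, a transducer of TGF-beta signals, overlapped without the 5 largest barcodes at 99.8, 138, 89.2 and 122 CPM. INHBA, the activin A subunit, measured 510, 203, 96.1 and 75.3 CPM, with a log2 fold change of -2.05 (SE 0.66, unadjusted edgeR p 0.023). LTBP1, which tethers latent TGF-beta to matrix, measured 53.8, 29.0, 169 and 95.1 CPM, with 43 of 237 UMIs of distended dog 1 in 1 nucleus.

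The heat shock difference in dog 2 was smaller without the largest barcodes. Of 18 tested heat shock genes 10 were higher in both dogs, with medians of 0.17 in dog 1 and 1.46 in dog 2. Without the 5 largest barcodes of each library the count was 7 of 17 and the dog 2 median 0.18. HSPA8, a constitutive HSP70, measured 34.4, 122, 144 and 281 CPM, and without those barcodes 34.9, 131, 152 and 107 CPM, where the groups overlapped. HSPH1, a nucleotide exchange factor, stayed above both controls at 22.5, 24.1, 29.0 and 96.7 CPM. BAG3, a co-chaperone in tension-driven autophagy, was below both controls at 118, 200, 60.5 and 71.3 CPM. Of 14 tested metallothionein and oxidative stress genes 7 were lower in dog 1 and higher in dog 2, with a dog 2 median of 1.26, and of 1.12 without the large barcodes. FTL, the ferritin light chain, measured 319, 274, 84.7 and 2884 CPM, and 242, 235, 88.4 and 1028 CPM without the large barcodes. NFE2L2, the regulator of oxidative defence, measured 588, 592.5, 323 and 297 CPM, close within each group.

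Of 72 tested cytosolic ribosomal protein genes 71 were lower in dog 1 and higher in dog 2, with medians of -2.33 and 4.20. They held 2.62%, 0.463%, 0.515% and 9.06% of library UMIs. Without the 5 largest barcodes of each library the shares were 1.90%, 0.465%, 0.508% and 1.60%, and the medians -1.92 and 1.60 over 71 genes. Of these 71, 68 were lower in dog 1 and higher in dog 2, with a smaller median in dog 2. RPLP1 measured 1190, 116, 139 and 4314 CPM, with 423 of 1089 UMIs of distended dog 2 in 1 nucleus. RPLP1 was at 886, 121, 143 and 814.5 CPM without the 5 largest barcodes, below control dog 1 in distended dog 2.

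Of 24 tested hypoxia and glycolysis genes PFKFB3, P4HA1 and VEGFA lay above both controls and BNIP3L and EPAS1 below. BNIP3L no longer passed the low-count filter without the 5 largest barcodes. PFKFB3, an activator of glycolysis, measured 32.3, 35.4, 69.7 and 91.1 CPM with the controls close together. Of 37 cell cycle genes found only 9 passed the filter on low counts. Of these 6 lay above both controls and 0 below, and since sparse genes pass mainly where they are high, the count supports nothing. ATAD2, a chromatin factor of S phase, measured 32.3, 58.0, 80.4 and 186 CPM. DIAPH3, a formin, measured 17.2, 16.1, 37.0 and 119 CPM, and 3 of its 30 UMIs in distended dog 2 came from its top nucleus.

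Markers of other cell types varied between libraries. The 11 erythroid markers summed to 45.2, 1604, 86.8 and 3.96 CPM, with 7, 1, 5 and 10 at 0. Macrophage markers summed to 545, 589, 940 and 325 CPM and lymphatic endothelial markers to 1173, 1591, 2348 and 531 CPM, each lowest in distended dog 2. In the lymphatic sums PKHD1L1 alone gave 964, 1117, 768 and 218 CPM, and PROX1 gave 12.9, 70.8, 120 and 7.92 CPM. In the macrophage sum of control dog 1, MERTK gave 243 CPM and STAB1 211 CPM, against 2.15 CPM from CD163. Pericyte markers summed to 262 CPM at most, platelet markers to 243 CPM, adipocyte markers to 114 CPM and Schwann cell and neural markers to 441 CPM. B cell and plasma cell markers summed to 489, 705, 1598 and 364 CPM, mostly from EBF1, with 2181 of the 2247 UMIs of distended dog 1 in 858 nuclei. The B cell genes MS4A1 and CD79A had 1 UMI and 0 UMIs over the 4 libraries. T and NK markers summed to 51.5 CPM at most, mast cell markers to 24.2 CPM and skeletal muscle markers to 32.2 CPM, and epithelial markers to 93.9 CPM. In the labelled tissue the endothelial markers PECAM1, CDH5 and VWF had UMIs in all 4 libraries, as did the fibroblast markers DCN, COL1A2 and COL3A1.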

How the data were processed

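Raw UMI counts were deposited by the authors as 10x matrices of features by barcodes. Cell Ranger 7.0.0 made them, per the submitters' processing notes. Neither coordinates nor sequences are printed, because the sources used here give no genome build. Features were named as in the deposited tables, with trailing digit suffixes stripped: 33882 of 35555 names matched a RefSeq gene table of UU_Cfam_GSD_1.0, and 500 features shared a name and could not be among the named genes. The 24 features that name no gene (5.12% to 11.7% of kept UMIs per library) and LOC119877772 to LOC119877775 were dropped. The 13 mitochondrial protein genes held 0 UMIs, so no mitochondrial filter could act. Scrublet in scanpy 1.11.5 marked 22 nuclei (0.528%), which were kept. No correction for RNA from outside nuclei was made.

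Sums of counts per library went into edgeR 4.0.16 under R 4.3.3 (TMM scaling, filterByExpr, two-sided quasi-likelihood test, Benjamini-Hochberg over 7404 genes), after a check on simulated data. The simulated counts varied less between libraries than these data, so that check does not measure the power of the test here. DESeq2 1.42.0 was an alternative. Standard errors are the log2 fold change over the root of the F statistic. Intervals cover counting error only. Clustering used 2000 variable genes, 20 principal components, 15 neighbours and resolution 0.8. Samples with the same number come from the same dog per the labels, but same-dog deviations from the group means correlated at -0.397.

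Named genes were tested symbols with 30 or more UMIs in all and UMIs in 10 or more nuclei of the higher group. The 15 per direction with the largest smaller within-dog log2 ratio (prior count 2) were taken. From each list the 3 highest members and up to 3 per direction without overlap were candidates. Further members are named where a count was 6 or fewer, chosen after their values were seen. Members and lists were chosen with earlier results of these data known. Some members of the lists are not reported here by name.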

Additional observations from a re-analysis of the deposited data

How the results depend on the processing

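With dog as a replicate block, 0 genes were called higher and 0 lower, and at an unadjusted p under 0.05 there were 20 and 23. Because same-dog libraries deviated in opposite directions, a crossed replicate block was added after seeing the data; it called 0 and 0, with 122 and 64 at the unadjusted level. Calls appeared in 1 setting: with no low-count filter (21363 genes) 8 were higher and 5 lower, 2442 genes lay above and 1697 below both controls, and 3516 and 2704 were higher and lower in both dogs. Leaving out 1 library at a time called 0 genes. It left 2526 to 3151 genes above and 2295 to 2804 below, since fewer libraries must be separated, and 44 to 561 higher and 50 to 317 lower at the unadjusted level, the most without distended dog 1. Removing the 5 largest barcodes of each library, or each gene's top nucleus, both chosen after seeing the data, called 0 genes.

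Of 587 alternative values for the 30 named genes, 585 kept their direction and side of the threshold. The genes had been chosen for that direction in these same libraries and none was called in the reported fit, so the count supports nothing further. RYR2 ranged from -4.74 (log2 fold change) without distended dog 1 to 0.058, the opposite direction, without control dog 1, and SOX6 was called with no low-count filter (-4.59, adjusted edgeR p 0.0056; 0.9997 in the reported fit). The summed fibroblast markers, 0.57 (log2 distended over control), ranged from -2.13 without distended dog 1 to 1.57 without control dog 2. Smooth muscle markers, -1.35, ranged from -4.35 without distended dog 1 to -0.44 without distended dog 2. The cause was not tested. With 252545 to 1390473 UMIs per library in tested genes, a library at 0 UMIs allows 2.13 to 11.9 CPM at 3 counts.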
